A study of Mus musculus with 16 samples.

Results

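The neurofilament and neuronal intermediate filament genes were described in the frontal cortex and cerebellum of Upf3b-KO and Ctrl mice. The members were taken by name and were Nefl, Nefm, Nefh, Ina and Prph, 5 of the 55266 genes to which the measured transcripts could be assigned. Their levels were the summed counts of all their transcripts, in CPM, the counts scaled to a common library total. Bulk RNA-seq was available for 16 libraries in 4 groups of 4, namely Ctrl and Upf3b-KO frontal cortex and Ctrl and Upf3b-KO cerebellum. The study's text describes adult Upf3b-null mice with controls from the same litters, 4 of each genotype. The 4 libraries of a group are taken here as 4 mice, although the labels give only replicate numbers. The strain, the sex, the age beyond adulthood and the structure of the null allele were not given in the sources used here, nor whether libraries of the 2 regions with the same number come from the same mouse. Upf3b is an adaptor of nonsense-mediated RNA decay (NMD), a pathway that degrades selected mRNAs during translation, and the study asked whether its targets differ between these regions.

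Neurofilaments are the intermediate filaments of axons, where they set the calibre of large myelinated fibres and with it the speed of conduction. They are built as heteropolymers, with the light chain Nefl as the core on which the medium chain Nefm and the heavy chain Nefh assemble, and both of the larger chains carry long tails that are heavily phosphorylated in axons. Alpha-internexin, the product of Ina, joins these chains in the central nervous system and appears early in neuronal development. Peripherin, the product of Prph, is typical of neurons that send axons into the periphery, such as motor neurons, and of some monoamine neurons. Large projection neurons of the brainstem, the spinal cord and the deep cerebellar nuclei are known for strong neurofilament staining.

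The 15 libraries used held 27660078 to 35238677 counts. The remaining one, Upf3b-KO cerebellum library 1, held 64981 counts and was left out, so that group had 3 libraries. Upf3b itself was measured at 14.2 to 15.7 CPM in Ctrl and 0.229 to 0.857 CPM in Upf3b-KO frontal cortex, and at 20.9 to 23.6 CPM in Ctrl and 0.617 to 0.965 CPM in Upf3b-KO cerebellum. The region labels held against defining markers, with 7 markers of cortical excitatory neurons summing to 1601 to 1738 CPM in frontal cortex and 367 to 545 CPM in cerebellum, and the granule cell gene Gabra6 at 384 to 756 CPM in cerebellum and at most 0.155 CPM in frontal cortex. Libraries of different genotype also differed in the markers of other cells. The summed level of 6 choroid plexus genes was 17.6 to 18.7 CPM in Ctrl and 2134 to 2188 CPM in Upf3b-KO frontal cortex, and 22.0 to 25.4 CPM in Ctrl and 1365 to 1387 CPM in Upf3b-KO cerebellum. The marker lists that bear on filament-rich neurons are given beside the results they move with.

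The members lie on 4 chromosomes of the GRCm39 build. Nefl (ENSMUSG00000022055, chr14:68321268-68326544, plus strand) and Nefm (ENSMUSG00000022054, chr14:68320039-68362305, minus strand) are neighbours, and 30187 bases separate the Nefl gene from the 3′ end of the main Nefm transcript. Nefh (ENSMUSG00000020396) is at chr11:4888740-4898130 on the minus strand, Ina (ENSMUSG00000034336) at chr19:47003069-47013770 on the plus strand and Prph (ENSMUSG00000023484) at chr15:98952872-98956862 on the plus strand. A ratio between members is meaningful only if their reads can be told apart. Over whole main transcripts of GENCODE vM39 the longest exact run on the same strand shared by a pair of members was 13 bases (Nefl and Ina) to 35 bases (Nefm and Prph), shorter than a sequenced read.

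Promoter sequence in the RefSeq table used here (GRCm38.p6, 250 bases before to 50 bases after the gene start) was matched for 2 of 5 members, and these were the members with the largest and the smallest difference between genotypes in the cerebellum. Both are written 5′ to 3′ on the gene's strand, and capitals mark TATAAA, the core of the TATA box.
Prph: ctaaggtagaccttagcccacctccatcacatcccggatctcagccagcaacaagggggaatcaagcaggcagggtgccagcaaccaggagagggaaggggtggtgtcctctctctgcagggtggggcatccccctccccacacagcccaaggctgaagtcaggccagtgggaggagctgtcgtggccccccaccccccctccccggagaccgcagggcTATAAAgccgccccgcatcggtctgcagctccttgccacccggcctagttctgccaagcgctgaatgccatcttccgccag
Ina: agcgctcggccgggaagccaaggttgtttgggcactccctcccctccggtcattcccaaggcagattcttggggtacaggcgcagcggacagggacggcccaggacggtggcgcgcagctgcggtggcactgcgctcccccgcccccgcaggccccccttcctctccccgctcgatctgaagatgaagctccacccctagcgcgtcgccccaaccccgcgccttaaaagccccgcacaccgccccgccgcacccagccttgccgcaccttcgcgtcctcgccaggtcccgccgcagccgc
The Prph promoter (chr15:99054924-99055223, plus strand) holds 1 TATAAA, which starts 31 bases before the gene start, and 10 CG dinucleotides at a GC content of 64.7%. The Ina promoter (chr19:47014431-47014730, plus strand) holds no TATAAA on either strand and 32 CG dinucleotides at a GC content of 71.7%. Of the 32851 promoters in the table, 8.32% hold TATAAA on the gene's strand and 13.6% on either strand, and their medians are 7 CG dinucleotides and a GC content of 52.7%. Promoters of Nefl, Nefm and Nefh were not analysed here.

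Levels of different genes were compared per length, in TPM, the counts per kilobase of transcript scaled to a common total. In Ctrl frontal cortex Nefl was the highest member at 552 ± 4.18 TPM (SD, n = 4), followed by Ina at 101 ± 1.21 TPM, Nefm at 71.3 ± 3.36 TPM, Nefh at 22.3 ± 0.702 TPM and Prph at 4.21 ± 0.660 TPM. The ranges of these 5 genes did not overlap, so the order was the same in all 4 libraries. In Upf3b-KO frontal cortex Nefl was again first at 434 ± 4.21 TPM (n = 4), but Ina at 97.3 ± 2.09 TPM and Nefm at 95.9 ± 0.944 TPM could not be ordered, since their ranges of 95.7 to 100.2 TPM and 94.8 to 97.1 TPM overlapped. Nefh at 25.9 ± 1.26 TPM and Prph at 2.22 ± 0.296 TPM stayed below them.

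The cerebellum had another order. In Ctrl cerebellum Nefl was first at 283 ± 4.83 TPM (n = 4) and Ina second at 109 ± 2.54 TPM, while Nefm at 66.3 ± 2.14 TPM and Nefh at 65.7 ± 1.62 TPM overlapped, and Prph was at 0.0693 ± 0.0815 TPM. In Upf3b-KO cerebellum Nefl stood at 961 ± 11.1 TPM (n = 3), Nefm at 345 ± 5.70 TPM, Nefh at 238 ± 4.66 TPM, Ina at 167 ± 5.24 TPM and Prph at 22.1 ± 1.54 TPM. Here none of the ranges overlapped, and Ina, second in the other 3 groups or level with Nefm, stood below Nefh. The plot of CPM by library shows the same values before the division by length.

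**Figure D1:**
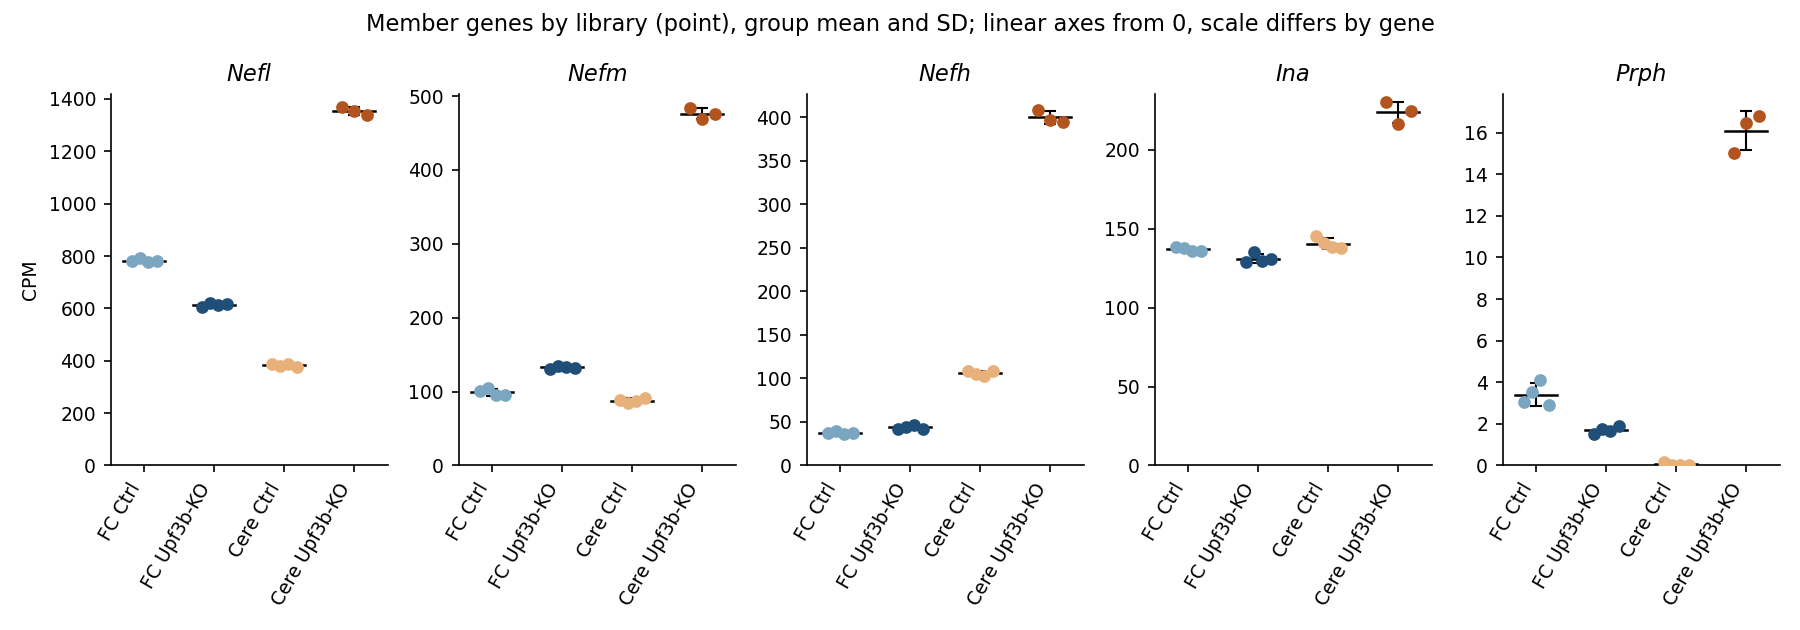
CPM (vertical, linear from 0, own scale for each gene) of the 5 genes in the 15 libraries (points), grouped by region and genotype (FC, frontal cortex; Cere, cerebellum), with group means (bars) and SD. All 5 genes are highest in Upf3b-KO cerebellum, where Nefl reaches 1371 CPM and Prph 16.8 CPM.

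In frontal cortex the members moved in both directions between genotypes. The light chain gene Nefl was measured at 781, 791, 777 and 781 CPM in the Ctrl libraries and at 606, 620.1, 614 and 615 CPM in the Upf3b-KO libraries. Every Upf3b-KO library was below every Ctrl library, and Nefl fell by 0.43 on the log2 scale (SE 0.012, adjusted p = 2.76e-17 in the quasi-likelihood test of edgeR, with the Benjamini-Hochberg method applied to 18218 genes). The medium chain gene Nefm was at 101, 104, 94.8 and 95.4 CPM in Ctrl and at 131, 134, 133 and 132 CPM in Upf3b-KO. Its groups did not overlap either, and it rose by a log2 fold change of 0.35 (SE 0.028, adjusted p = 6.77e-10).

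The heavy chain gene Nefh had 37.2, 39.2, 36.3 and 37.5 CPM in Ctrl and 42.0, 44.1, 46.6 and 42.0 CPM in Upf3b-KO frontal cortex. It rose by 0.14 on the log2 scale (SE 0.041, adjusted p = 0.00593). This pass was lost when Ctrl replicate 1, 3 or 4 or Upf3b-KO replicate 2 or 3 was left out, with an adjusted p of up to 0.0330 in edgeR. Ina stood at 138.7, 137.5, 135.9 and 135.8 CPM in Ctrl and at 129.1, 135.0, 129.2 and 131.1 CPM in Upf3b-KO. The groups were separated by under 1 CPM, and Ina fell by 0.14 on the log2 scale (SE 0.022, adjusted p = 1.57e-05). With library totals and no further scaling, the log2 fold changes were 0.22 for Nefh and -0.063 for Ina, whose adjusted p was then 0.0201 and no longer passed, with the median of all genes 0.076 higher than under TMM scaling.

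Prph, the least abundant member, was at 3.03, 3.55, 4.12 and 2.92 CPM in Ctrl frontal cortex, or 94 to 142 counts, and at 1.49, 1.76, 1.65 and 1.88 CPM in Upf3b-KO, or 50 to 61 counts. Each Upf3b-KO library was lower than each Ctrl library, with a log2 fold change of -1.08 (SE 0.16, adjusted p = 7.28e-06). It was the 1 member of 5 that was called, which took a change of more than 2-fold with an adjusted p below 0.01, against 10.2% of all genes tested, and without Ctrl replicate 3 its log2 fold change was -0.98, under the 2-fold limit. Without the fold limit, 5 of 5 members passed (2 higher, 3 lower), against 43.6% of all genes, with the passes of Nefh and Ina lost under the settings named above, and the groups of 5 of 5 members did not overlap, against 51.5% of genes whose mean reached 1 CPM. The median over the members was -0.14 and that over all genes 0.0037.

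Other cell markers differed in the same libraries. All 7 striatal neuron markers were called higher in Upf3b-KO frontal cortex, and their summed level was 145 to 157 CPM in Ctrl and 746 to 759 CPM in Upf3b-KO, with the dopamine receptor gene Drd2 at 0.869 to 2.18 and 11.8 to 13.4 CPM. Of 10 markers of cholinergic and monoamine neurons, 4 were called higher and 2 were at 0 in every Ctrl library, with summed levels of 4.55 to 5.46 CPM in Ctrl and 14.8 to 17.0 CPM in Upf3b-KO. Of 11 markers of brainstem and deep nuclei neurons, 4 were at 0 in every Ctrl library and 2 in every Upf3b-KO library, and the list summed to 114 to 119 CPM in Ctrl and 118 to 124 CPM in Upf3b-KO. These close sums cover opposite changes. Spp1 was called lower, from 22.3 to 24.1 CPM in Ctrl to 8.96 to 9.68 CPM in Upf3b-KO, and Slc17a6 passed lower at a log2 fold change of -0.18. Pvalb and Kcns1 passed higher by log2 fold changes of 0.32 and 0.31. The 7 markers of cortical excitatory neurons summed to 1673 to 1738 CPM in Ctrl and 1601 to 1612 CPM in Upf3b-KO, and 1 of them was called lower. At any fold 4 of them passed lower, while 2, Cux2 and Rorb, passed higher by log2 fold changes of 0.28 and 0.17. All 6 oligodendrocyte markers passed higher at any fold, with sums of 7556 to 7641 CPM in Ctrl and 10222 to 10296 CPM in Upf3b-KO. All 5 astrocyte markers passed lower, with sums of 2837 to 2875 and 2256 to 2283 CPM. Of 5 parvalbumin interneuron markers, 2 passed higher and 1 lower. The part of these differences in the filament genes was not tested. In bulk tissue, fewer cells of a type and less RNA per cell cannot be told apart.

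In the cerebellum all 5 members were higher in Upf3b-KO. Nefl was at 387, 379.8, 388 and 377 CPM in the Ctrl libraries and at 1371, 1355 and 1339.9 CPM in the 3 Upf3b-KO libraries. The groups were far apart, with a log2 fold change of 1.77 (SE 0.014, adjusted p = 3.82e-24). Nefm was at 88.3, 84.3, 87.3 and 91.3 CPM in Ctrl and at 484, 469 and 476 CPM in Upf3b-KO. Its log2 fold change of 2.39 (SE 0.023, adjusted p = 3.87e-23) was the largest of the 3 neurofilament chains. Nefh was at 108, 104, 102 and 109 CPM in Ctrl and at 408, 396 and 394 CPM in Upf3b-KO, a log2 fold change of 1.87 (SE 0.022, adjusted p = 1.15e-21).

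Ina rose least. It was measured at 145.5, 140.8, 138.3 and 137.6 CPM in Ctrl and at 230.1, 216.5 and 224.7 CPM in Upf3b-KO cerebellum, a log2 fold change of 0.62 (SE 0.025, adjusted p = 6.85e-14), which did not reach a 2-fold change. Prph was almost undetected in Ctrl cerebellum, with 5, 0, 1 and 1 counts in the 4 libraries, and had 431, 580 and 572 counts in the 3 Upf3b-KO libraries (15.04, 16.5 and 16.8 CPM). Pooled over libraries, 1583 counts in Upf3b-KO against 7 in Ctrl gave a ratio of levels of 292 (exact 95% interval 141 to 728, for counting error only), and edgeR's test gave an adjusted p = 9.72e-16. Ctrl library 1 held 5 of the 7 counts, and without it the ratio was 743 (exact 95% interval 205 to 6142). The fitted log2 fold change of Prph, 8.04, depends on the count added to empty libraries and is not used as a size.

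Of the 5 members, 4 were called higher in Upf3b-KO cerebellum, against 13.2% of 17785 genes called in either direction, and 5 passed without the fold limit, against 55.2%. The groups of 5 of 5 members did not overlap, against 68.4% of genes whose mean reached 1 CPM. The median log2 fold change was 1.87 over the members and 0.0077 over all genes. Among all genes tested, 95.8% had a lower log2 fold change than Nefm, 94.3% a lower one than Nefh, 93.9% a lower one than Nefl and 82.2% a lower one than Ina.

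Markers of neurons outside the cerebellar cortex moved with these genes. Of 11 markers of brainstem and deep nuclei neurons, 9 were called higher in Upf3b-KO cerebellum, and Kcns1 did not pass. Pvalb, a calcium-binding protein gene that Purkinje cells also express strongly, fell by 0.63 on the log2 scale (adjusted p = 3.25e-17), from 786 to 818 CPM in Ctrl to 533 to 537 CPM in Upf3b-KO. The list summed to 867 to 896 CPM in Ctrl, most of it Pvalb, and to 1103 to 1113 CPM in Upf3b-KO, with none of its genes at 0 in every library of a group. Among them Hoxb5, a gene of hindbrain and spinal cord position, was at 0 to 0.0723 CPM in Ctrl and 25.7 to 29.9 CPM in Upf3b-KO, and Slc17a6, the glutamate transporter of many brainstem neurons, at 8.71 to 9.76 and 155 to 157 CPM. The glycine receptor gene Glra1 was at 0.525 to 0.868 CPM in Ctrl and at 44.9 to 48.0 CPM in Upf3b-KO. Of 10 markers of cholinergic and monoamine neurons, 9 were called higher, with sums of 12.4 to 13.6 CPM in Ctrl and 141 to 147 CPM in Upf3b-KO. The acetylcholine enzyme gene Chat and the acetylcholine transporter gene Slc18a3, which mark motor neurons among others, were at 0 in all 4 Ctrl libraries, and Chat was at 13.0 to 14.5 CPM in Upf3b-KO.

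Markers of the cerebellar cortex were lower. All 8 Purkinje cell markers passed lower, 7 of them past 2-fold, and their sum was 11983 to 12129 CPM in Ctrl and 4900.5 to 4916 CPM in Upf3b-KO. All 6 granule cell markers passed lower, 4 of them past 2-fold, with sums of 3901 to 3923 and 2029 to 2043 CPM. Of 5 parvalbumin interneuron markers, 4 passed lower, with sums of 2259 to 2282 and 1631 to 1646 CPM. All 6 oligodendrocyte markers passed higher, 5 of them past 2-fold, with sums of 6208 to 6328 CPM in Ctrl and 14390 to 14493 CPM in Upf3b-KO. These marker differences were aligned with genotype in the 7 cerebellar libraries, so genotype and the makeup of the tissue pieces cannot be told apart here, and the part of the markers in the filament result was not tested. The plot of gene lists shows these groups side by side.

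**Figure D2:**
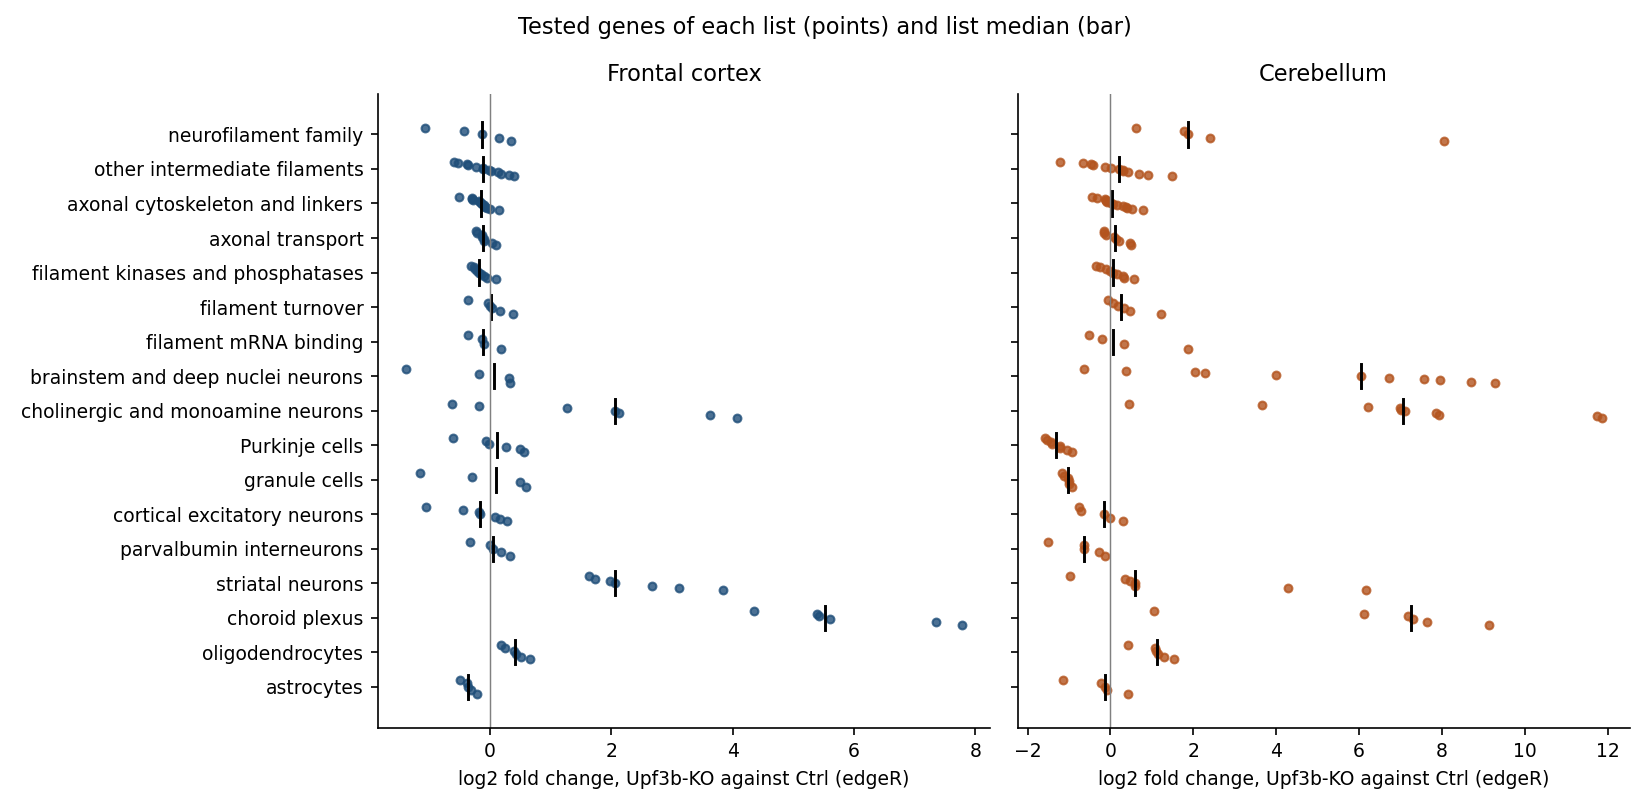
edgeR log2 fold changes of Upf3b-KO against Ctrl (horizontal) for the tested genes of each list (points) and their median (bar), in frontal cortex and in cerebellum. The neurofilament family has a median of -0.14 in frontal cortex and 1.87 in cerebellum, and the lists of the axonal cytoskeleton, transport and filament kinases have medians between -0.18 and 0.11 in both.

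Between regions of Ctrl mice the chains differed in opposite directions. Nefh was higher in cerebellum than in frontal cortex by a log2 fold change of 1.47 (SE 0.031, adjusted p = 5.51e-24), and Nefl was lower by a log2 fold change of -1.06 (SE 0.014, adjusted p = 1.24e-28). Nefm was lower by a log2 fold change of -0.20 (SE 0.028, adjusted p = 4.31e-07). For Ina the log2 fold change was 0.0099 (SE 0.023, adjusted p = 0.714), the libraries of the 2 regions overlapped, and its sign changed under 6 of the alternatives tried. Prph had a pooled level of 0.0553 CPM in Ctrl cerebellum (exact 95% interval 0.0222 to 0.114) and 2.92 to 4.12 CPM in Ctrl frontal cortex, and was lower in cerebellum by edgeR's test (adjusted p = 1.56e-15). Without Ctrl cerebellum library 1 the pooled level was 0.0217 CPM (exact 95% interval 0.00263 to 0.0786). Of 5 members 3 were called, against 25.5% of 19831 genes, 4 passed at any fold, against 65.5%, and 4 did not overlap between regions, against 76.6%. In the same comparison 3 of 11 brainstem and deep nuclei markers were called higher and 2 lower in cerebellum, and 3 of 10 cholinergic and monoamine markers higher and 5 lower.

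Between regions of Upf3b-KO mice all 5 members were higher in cerebellum. The log2 fold changes were 3.18 for Nefh (SE 0.030, adjusted p = 3.20e-31), 1.83 for Nefm (SE 0.026, adjusted p = 2.30e-27) and 1.13 for Nefl (SE 0.014, adjusted p = 1.35e-28). Prph had a log2 fold change of 3.23 (SE 0.16, adjusted p = 1.03e-15). Ina was the member under 2-fold, at 0.76 (SE 0.024, adjusted p = 9.50e-20). The calls covered 4 of 5 members, against 21.8% of all genes, 5 of 5 passed at any fold, against 60.3%, and 5 of 5 did not overlap, against 75.1%. Of the brainstem and deep nuclei markers, 10 of 11 were called higher and 1, Kcns1, lower in cerebellum, with sums of 118 to 124 CPM in frontal cortex and 1103 to 1113 CPM in cerebellum. Of the cholinergic and monoamine markers, 9 of 10 were called higher, with sums of 14.8 to 17.0 and 141 to 147 CPM. The part of these markers in the filament result was not tested. This comparison shares its libraries with those between genotypes.

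The difference between genotypes itself differed between regions for all 5 members. In 1 fit of the 15 libraries, the log2 difference of the cerebellar from the frontal cortex change was 2.19 for Nefl (SE 0.020, adjusted p = 5.49e-30), 2.03 for Nefm (SE 0.038, adjusted p = 8.00e-24) and 1.71 for Nefh (SE 0.044, adjusted p = 4.10e-21). It was 0.75 for Ina (SE 0.033, adjusted p = 5.36e-16) and passed for Prph at an adjusted p = 5.31e-18, with a fitted value that again depends on the near-empty Ctrl cerebellum. At any fold 5 of 5 passed, against 38.9% of genes, and past 2-fold 4 of 5, against 9.4%. The plot of log2 fold changes sets the 5 comparisons beside each other.

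**Figure D3:**
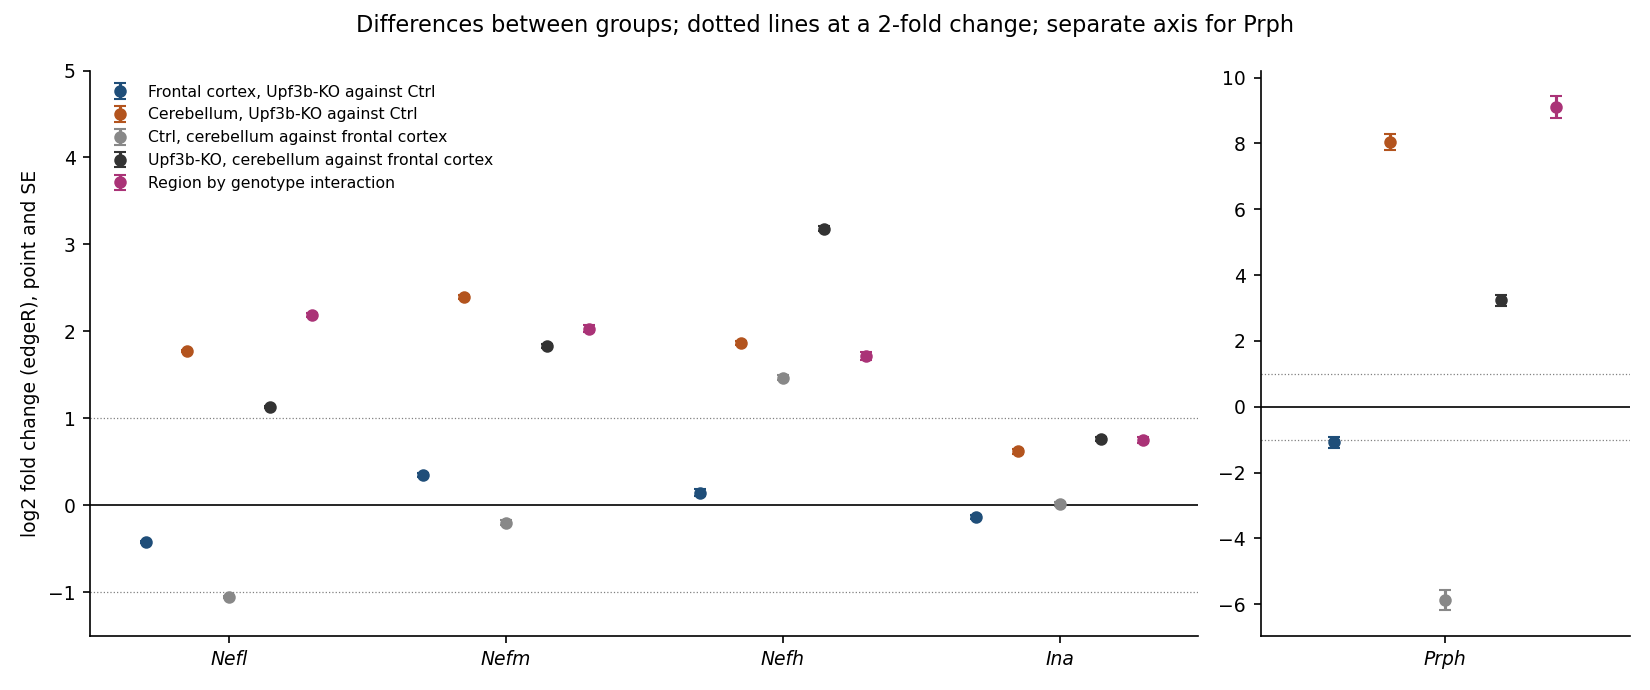
edgeR log2 fold changes (vertical) with SE for each gene in the 5 comparisons (colours), with dotted lines at a 2-fold change and a separate axis for Prph. The frontal cortex changes lie between -0.43 and 0.35 for the 4 genes on the left, while the cerebellar changes of Nefl, Nefm and Nefh lie between 1.77 and 2.39.

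Ratios between members were computed per kilobase of transcript within each library and do not depend on library scaling. In frontal cortex, 1 Nefm transcript was present for 7.55, 7.42, 8.02 and 8.002 Nefl transcripts in the Ctrl libraries and for 4.52, 4.51, 4.52 and 4.55 in the Upf3b-KO libraries. The Upf3b-KO libraries differed among themselves by under 0.05 and lay clear of all Ctrl libraries. The log2 ratio Nefm:Nefl was higher in Upf3b-KO by 0.78 (SE 0.029). In cerebellum the same ratio was higher in Upf3b-KO by 0.62 (SE 0.030), from 4.27 ± 0.162 (SD, n = 4) Nefl transcripts per Nefm transcript in Ctrl to 2.78 ± 0.0389 (n = 3) in Upf3b-KO. So Nefm gained on Nefl in both regions, although Nefl itself was lower in one and higher in the other.

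The heavy chain behaved otherwise. Nefh:Nefl was higher in Upf3b-KO frontal cortex by 0.57 on the log2 scale (SE 0.038), from 24.8 ± 0.594 to 16.7 ± 0.777 Nefl transcripts per Nefh transcript (SD, n = 4 each). In cerebellum it was 4.31 ± 0.158 in Ctrl (n = 4) and 4.03 ± 0.0373 in Upf3b-KO (n = 3), a log2 difference of 0.094 (SE 0.027), and this difference turned to -0.046 when the library of low depth was included. The step between regions was far larger than either, with Nefh:Nefl higher in cerebellum than in frontal cortex by 2.53 (SE 0.032) in Ctrl and by 2.05 (SE 0.035) in Upf3b-KO.

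Ina:Nefl moved in opposite directions in the 2 regions. It was 0.184 ± 0.00190 in Ctrl and 0.224 ± 0.00316 in Upf3b-KO frontal cortex (SD, n = 4 each), a log2 difference of 0.29 (SE 0.013), and 0.385 ± 0.00875 in Ctrl (n = 4) and 0.173 ± 0.00484 in Upf3b-KO cerebellum (n = 3), a log2 difference of -1.15 (SE 0.029). Against Ina, Nefm was higher in Upf3b-KO by 0.49 (SE 0.029) in frontal cortex and 1.77 (SE 0.036) in cerebellum, and Nefh by 0.28 (SE 0.045) and 1.25 (SE 0.029). The larger chains were close to each other in Ctrl cerebellum, at 1.009 ± 0.0253 Nefm per Nefh transcript, and Nefm stood above Nefh elsewhere, at 3.21 ± 0.0911 in Ctrl and 3.70 ± 0.165 in Upf3b-KO frontal cortex and 1.45 ± 0.0174 in Upf3b-KO cerebellum.

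**Figure D4:**
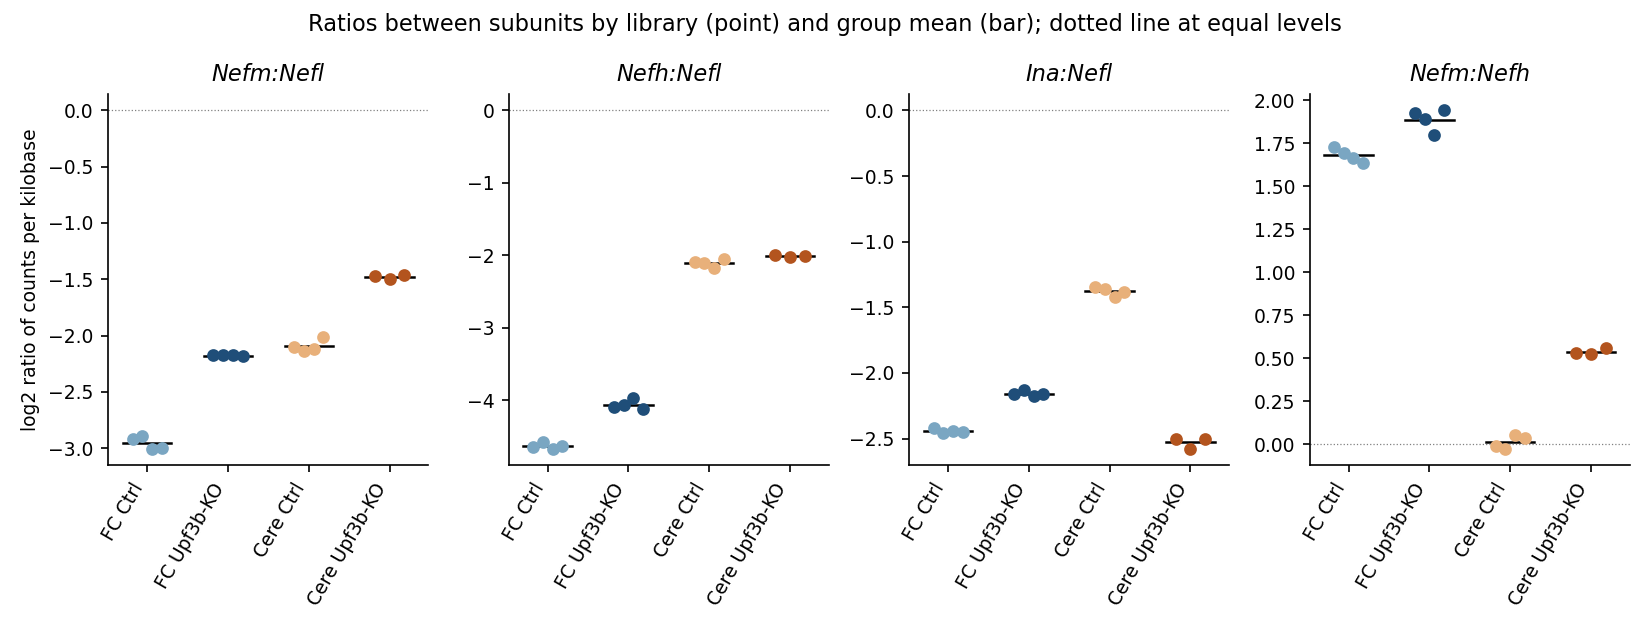
Log2 ratios of counts per kilobase (vertical, own scale for each ratio) in the 15 libraries (points), with group means (bars) and a dotted line at equal levels. Nefm:Nefl is higher in Upf3b-KO in both regions, Ina:Nefl is higher in frontal cortex and lower in cerebellum, and Nefh:Nefl separates the regions.

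Prph ratios were computed only where Prph had counts in every library of both groups. In frontal cortex they were lower in Upf3b-KO, by 0.57 on the log2 scale against Nefl (SE 0.15), by 1.35 against Nefm (SE 0.15), by 1.14 against Nefh (SE 0.14) and by 0.86 against Ina (SE 0.15). With only the most abundant transcript of each gene, the log2 differences were -0.79 against Nefl, -1.35 against Nefh and -1.07 against Ina. Between regions of Upf3b-KO mice Prph:Nefh was 0.0928 ± 0.00818 in cerebellum (n = 3) and 0.0855 ± 0.00896 in frontal cortex (n = 4), a log2 difference of 0.12 (SE 0.11), with overlapping libraries. This difference was 0.43 with the cerebellar library of low depth and 0.050 without Upf3b-KO frontal cortex replicate 1, the widest moves of those tried, and the libraries no longer overlapped without cerebellar Upf3b-KO replicate 2. In all, 32 ratio comparisons were made, and the groups did not overlap in 31 of them. The exact two-sided permutation test gave its smallest possible p, 0.0286 with 4 against 4 libraries, in all 16 comparisons of that size, with an adjusted p = 0.0571 over the 32 tests. With 4 against 3 libraries the exact permutation test cannot go below p = 0.0571, which it gave in 15 of 16, while Prph:Nefh gave p = 0.343. These p-values depend on the two-sided rule. Counting instead every split with a difference at least as large in size, 30 of the 32 exact permutation tests gave p = 0.0286 and an adjusted p = 0.0305. With the rule used here none passed 0.05 after adjustment, and none could have. The smallest possible p at these library numbers keeps every adjusted p of this permutation test at 0.0571 or above, whatever the data.

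The background of such separation is high. The ratio of a gene to Nefl did not overlap between genotypes for 78.7% of all genes with counts in every library in frontal cortex and for 96.9% in cerebellum, and between regions for 90.9% in Ctrl and 94.6% in Upf3b-KO mice. The 4, 3, 3 and 4 ratios of the other members to Nefl, which did not overlap in any of these comparisons, therefore do not stand out by separation alone, and their sizes are the description.

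The makeup of the family followed from these ratios. Nefl made up 73.5 ± 0.339% of the summed TPM of the 5 genes in Ctrl frontal cortex and 66.2 ± 0.176% in Upf3b-KO (SD, n = 4 each), and 54.0 ± 0.603% in Ctrl (n = 4) and 55.4 ± 0.335% in Upf3b-KO cerebellum (n = 3). The share of Nefm was 9.49 ± 0.339% and 14.6 ± 0.0300% in frontal cortex and 12.7 ± 0.399% and 19.9 ± 0.159% in cerebellum, in the same order of genotypes. Nefh had 2.96 ± 0.0649% and 3.96 ± 0.183% in frontal cortex and 12.5 ± 0.321% and 13.7 ± 0.0978% in cerebellum. Ina had 13.5 ± 0.126% and 14.9 ± 0.193% in frontal cortex, and its share in cerebellum was 20.8 ± 0.376% in Ctrl and 9.61 ± 0.212% in Upf3b-KO.

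The summed level of the family was 751 ± 8.68 TPM in Ctrl and 655 ± 7.41 TPM in Upf3b-KO frontal cortex, and 524 ± 6.19 TPM in Ctrl and 1733 ± 22.3 TPM in Upf3b-KO cerebellum. In the sum, Ctrl cerebellum was thus the lowest group and Upf3b-KO cerebellum the highest.

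**Figure D5:**
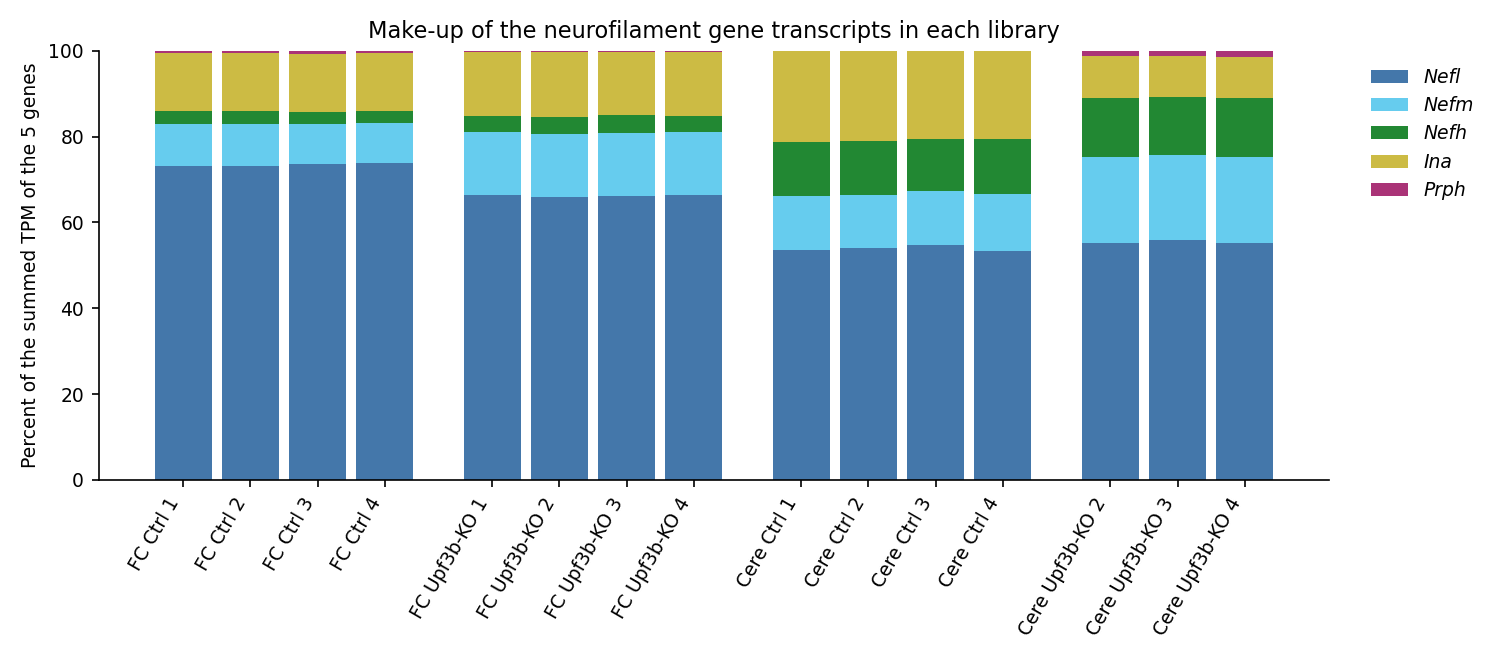
Share of each gene in the summed TPM of the 5 genes (vertical, percent) for the 15 libraries, in 4 groups. Nefl takes 73.5% in Ctrl frontal cortex and 54.0% in Ctrl cerebellum, and the Ina share drops from 20.8% in Ctrl to 9.61% in Upf3b-KO cerebellum.

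Single transcripts carried most counts of each gene. The files held 9 of the 32 annotated transcripts of the members, 1 each for Nefl, Nefh and Ina, 2 for Nefm and 4 for Prph, and none of the 4 that are annotated as decay targets. The main Nefm transcript (ENSMUST00000022638) held 98.1 to 99.6% of the gene in the 4 groups, and the main Prph transcript held 94.0% in Ctrl and 86.1% in Upf3b-KO frontal cortex and 90.5% in Upf3b-KO cerebellum. The minor Nefm transcript (ENSMUST00000111089) had 30 to 102 counts a library and overlaps Nefl exons by 1152 bases on the opposite strand. The study's methods name the SMART-Seq v4 PLUS kit for RNA-seq libraries but give no strand setting for the counting. The counts of this minor transcript are therefore uncertain. Ina overlaps a transcript of Nt5c2 by 516 bases on the opposite strand, and that transcript had at most 688 counts, against at least 3806 for Ina. On the opposite strand the annotation also places transcripts of A230070E04Rik on up to 1117 bases of the main Nefm transcript and of Ap1b1 on up to 799 bases of Nefh. Those transcripts were not analysed here, so reads from them could be counted to Nefm or Nefh if strand was not used.

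Tested by transcript, 4 main transcripts were called in cerebellum, those of Nefl, Nefm, Nefh and Prph, against 4.75% of 44259 transcripts. In frontal cortex the main Prph transcript (ENSMUST00000024249) was called at a log2 fold change of -1.19 (SE 0.19, adjusted p = 0.00372), against 3.22% of 42047 transcripts, and it was not called without a filter on low counts or when Ctrl replicate 1, 2 or 3 or Upf3b-KO replicate 1, 3 or 4 was left out. The minor Nefm transcript had log2 fold changes of 0.70 in frontal cortex (SE 0.30, adjusted p = 0.184) and 0.63 in cerebellum (SE 0.30, adjusted p = 0.203), neither of which passed.

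Genes that work with neurofilaments are read against the 10.2% of all genes called between genotypes in frontal cortex and the 13.2% called in cerebellum, shares at which lists of this size would hold few calls. Of 14 genes of the axonal cytoskeleton and its linkers, such as the tau gene Mapt and the plakin gene Dst, none was called in either region. In frontal cortex 1 passed higher and 11 lower at any fold, against 43.6% of all genes, with a median of -0.14. In cerebellum 6 passed higher and 6 lower, against 55.2% of all genes, with a median of 0.027. Of 8 genes of axonal transport, among them Kif5a, the kinesin that carries neurofilaments, none was called either, with medians of -0.12 and 0.11. Kif5a had log2 fold changes of -0.10 in frontal cortex and 0.50 in cerebellum. The 9 genes of filament kinases and phosphatases had medians of -0.18 and 0.068, with none called.

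The other intermediate filament genes gave 2 calls of 13 in cerebellum, near the share of all genes, and none in frontal cortex. Sync, the gene of syncoilin, rose with a log2 fold change of 1.48 at a level of at most 1.22 CPM, and Vim, the vimentin gene of glia and other non-neuronal cells, fell by 1.22, from 92.1 to 94.3 CPM in Ctrl to 37.2 to 44.3 CPM in Upf3b-KO. In the list of filament turnover, Hspb1, a small heat shock protein gene that is strong in motor neurons, was the 1 gene of 6 called in cerebellum, at a log2 fold change of 1.23. Among 4 genes of filament mRNA binding, Arhgef28, whose product binds the Nefl mRNA, was called there at 1.87, from 4.72 to 5.91 CPM in Ctrl to 19.1 to 20.5 CPM in Upf3b-KO. In frontal cortex Arhgef28 fell by 0.14 on the log2 scale.

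The genes whose pattern was most like each member were named by the highest Pearson correlation of log2(CPM + 1) over the 15 libraries among 11985 genes averaging 5 CPM or more. These points share 4 groups, so the values are a description. For Nefl they were Reep1 (r = 0.995), Dlk1 (0.993) and Limk1 (0.987), for Nefm Ap1s2 (0.995), Gatm (0.993) and Rassf4 (0.992), and for Nefh, as the second and the third, Bcat1 (0.998) and Slc25a25 (0.996). For Ina they were Pkm (0.991), Glra1 (0.989) and Klhdc8a (0.989). Nefl was the nearest of all genes to Prph (0.995), followed by Dlk1 (0.990) and Fkbp3 (0.988). Dlk1 and Glra1 averaged under 5 CPM in each group except Upf3b-KO cerebellum, where their means were 22.4 and 46.97 CPM. They entered the comparison only through that group, in which every member was highest. How far their r rests on that group was not tested. The nearest genes did not share a single pattern. In Ctrl frontal cortex, Upf3b-KO frontal cortex, Ctrl cerebellum and Upf3b-KO cerebellum, in this order, Limk1, a kinase gene of the actin cytoskeleton, had means of 61.9, 57.4, 29.8 and 133 CPM. Ap1s2, the gene of a clathrin adaptor subunit, had means of 54.2, 66.9, 49.7 and 136 CPM. Bcat1, an enzyme gene of branched-chain amino acid breakdown, had means of 85.4, 86.5, 126 and 231 CPM. All 3 were highest in Upf3b-KO cerebellum, and they differed in the order of the other groups.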

How the data were processed

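Ribosomal RNA was depleted from total RNA and paired-end libraries were sequenced. Per the labels and the study's methods, the authors aligned reads with STAR 2.5.2b to GRCm39 and deposited 1 matrix per region with the expected counts of 142435 transcripts, as estimated by RSEM. Counts of the 141102 transcripts found in GENCODE vM39 were summed per gene (55266 genes) and rounded, and 1333 transcripts were left out. Groups came from the labels. Genes were tested with edgeR 4.0.16 (quasi-likelihood F test, TMM scaling, filterByExpr with a minimum count of 10) in R 4.3.3, with Benjamini-Hochberg adjustment over all genes tested, within each region for genotype and in 1 fit of 15 libraries for regions and the interaction. Genes were called at an adjusted p under 0.01 and over 2-fold, and rose or fell where the adjusted p was under 0.01. TPM was computed from counts per kilobase of transcript. Ratios were compared with exact two-sided permutation tests over libraries (scipy 1.17.1 conventions, with p as double the smaller tail, a rule that replaced the count of differences at least as large in size after results under the latter had been seen). The alternatives were DESeq2 1.42.0, other scalings, filters and thresholds, a replicate block and leaving out each library. In data simulated for each of the 5 comparisons, in 17409 to 18913 genes, 200 of 200 genes changed by 2 on the log2 scale were recovered, with 0 or 1 false calls. The changed genes were well counted, as many rose as fell, and no other gene changed. The simulation therefore does not cover smaller changes or changes mostly in one direction.

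All 5 members were named, the other lists were described by their called genes and those a result turned on, and likeness by the 3 nearest genes. A few genes and sequences are not reported here. The members and lists were chosen with earlier results of these data known. Replicates are taken as different mice. Regions were compared across the 2 matrices, which hold unscaled counts of the same pipeline. The common biological coefficient of variation was 0.0387 to 0.0399, and p-values measure the spread between these libraries, which may be partly technical. Pairs of replicates differed by 2.17 to 2.61 times the median squared difference that counting alone gives. A count of 0 allows up to 3 counts, or 0.0851 to 0.108 CPM in the libraries used. Such floors and the intervals cover counting error alone.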

Additional observations from a re-analysis of the deposited data

Results flagged for a closer look

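All 5 members had a genotype difference that differed between regions, by the interaction test in edgeR, which 38.9% of all genes passed at any fold and 9.4% past 2-fold. The log2 values of cerebellum minus frontal cortex were 2.19 for Nefl, 2.03 for Nefm, 1.71 for Nefh, 0.75 for Ina and 9.11 for Prph. The last rests on 7 counts in Ctrl cerebellum, ran from 8.69 to 10.3 over the alternatives and gives no size. Markers of brainstem and of cholinergic neurons differed between genotypes in the cerebellum with these genes, and their part was not tested.

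Among 41 sets of 4 libraries examined for a library far from the others, 1 was found, where chance gives about 1 in 20. It was the Nefh:Ina ratio of Ctrl cerebellum, with a log2 ratio of -0.66 in replicate 4 and -0.75 to -0.76 in the other libraries.

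The Upf3b-KO cerebellum library left out for its 64981 counts held members above every Ctrl cerebellum library. Nefl was at 1462 CPM (95 counts), Nefm at 477 CPM (31 counts), Nefh at 292 CPM (19 counts) and Ina at 215 CPM (14 counts). Prph had 2 counts there, under the limit of 3. No intervals were computed for these few counts. Ina was at 137.6 to 145.5 CPM in Ctrl cerebellum, and whether it differed beyond counting error was not tested.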

How the results depend on the processing

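Across the alternatives, 124 values of the counts of genes, transcripts and separated ratios stayed within 1.5 times and 21 moved further, while of the single genes, called past 2-fold, and ratios 785 kept their call and direction or stayed within the spread, 17 moved, 1 lost its call and 7 reversed. Counts of genes moved with the threshold. At an adjusted p under 0.05 and no fold limit they were 9711 in frontal cortex, 11453 in cerebellum, 14488 between Ctrl regions, 13488 between Upf3b-KO regions and 9527 for the interaction, and at 0.01 they were 7950, 9820, 12988, 11951 and 7709. At a fold over 1.5 they were 4049 in cerebellum and 3336 for the interaction. With a minimum count of 50, the calls were 1047 in frontal cortex, against 1861, and 1500 in cerebellum, against 2339. Called transcripts of the members in frontal cortex went from 1 to 0 with no filter and to 0 to 1 when 1 library was left out.

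Ina between Ctrl regions, 0.0099 on the log2 scale, was -0.017 with RLE scaling, -0.015 with no filter, -0.0015 with a minimum count of 50, -0.018 with only those groups in the fit, -0.017 in DESeq2 and -0.0050 to 0.020 when 1 library was left out, the lowest without Ctrl cerebellum replicate 1. Nefh:Nefl in cerebellum was -0.046 and Prph:Nefh between Upf3b-KO regions 0.43, against 0.12, with the library of low depth. Prph in frontal cortex was -0.98 without Ctrl replicate 3. Below the fold limit, the largest adjusted p in frontal cortex was 0.0330 for Nefh, without Upf3b-KO replicate 3, and 0.0201 for Ina, with scaling by totals alone. The pooled Prph ratio in cerebellum was 214 to 743 when a Ctrl library was left out. This and scaling by totals alone were added after the data were seen. The cause of these moves was not tested.

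Same-numbered libraries correlated at -0.107 to 0.119 in their deviations and are not known to come from the same mouse, and the fits reported above hold no replicate block. With the block, 1837 genes were called in frontal cortex, 2180 in cerebellum, 4955 between Ctrl regions, 4183 between Upf3b-KO regions and 1765 for the interaction, and 31 of 32 ratios kept one sign in every pair. Prph in Ctrl cerebellum, at 7 counts, limits the comparisons that use that group.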
